A study of Mus musculus with 45 samples.

Results

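Induced myogenic progenitor cells (iMPCs), made from fibroblasts by MyoD and small molecules, were compared with myoblasts from skeletal muscle after both had been purified by cell sorting for a nuclear green fluorescent protein driven by Pax7 (Pax7-nGFP). The libraries compared are those titled Pax7-GFP+ iMPC 1 to 3 and Pax7-GFP+ myoblast 1 to 3, 6 of the 45 libraries of the series, with 3 in each group. All 6 carry the genotype Tg:Pax7-nGFP/C57BL6;DBA2 and the treatment label FACS-purified, so the reporter and the sort are shared and the origin of the cells differs. The iMPC route starts from mouse embryonic fibroblasts of that genotype in which doxycycline (Dox) induces MyoD together with F/R/C, which in this protocol are forskolin, RepSox and CHIR99021. The labels used here give no culture medium, passage or animal age for the sorted cells, and a reporter gate selects cells that hold the fluorescent protein, which can outlast the RNA of Pax7. Unsorted, bulk cultures of both kinds (3 libraries each, the same genotype) were set beside them. The bulk iMPCs are described as established clones that no longer need Dox and were kept in F/R/C medium after 13 days of Dox with F/R/C, and the bulk primary myoblasts are labelled untreated.

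Pax7 is the transcription factor of satellite cells, the stem cells of skeletal muscle, and myoblasts are their dividing progeny. Myf5 and MyoD commit these cells to muscle, myogenin starts terminal differentiation, and the cells then leave the cell cycle, fuse and build sarcomeres. Notch signalling holds satellite cells in the undifferentiated state, and beta-catenin, cyclic AMP and TGF-beta signalling are the pathways that CHIR99021, forskolin and RepSox act on (CHIR99021 inhibits GSK3 and so stabilises beta-catenin, forskolin activates adenylyl cyclase, and RepSox inhibits the TGF-beta type I receptor).

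RNA of the sorted cells was measured by stranded poly-A RNA-seq. The 6 libraries held 17.5 to 24.2 M estimated reads, and levels are given as CPM, counts per 1 M of the TMM-scaled library size. Replicates correlated with r from 0.952 to 0.972 across genes and libraries of different groups with r from 0.866 to 0.901. Nothing in the labels says that the replicates came from separate animals or cultures. P-values measure the spread between libraries within the 15 groups of the series, fitted together, and not that of the 6 sorted libraries alone. With only the 6 sorted libraries fitted, 3424 genes were called, against 5199 in the fit used here. Each sorted group holds libraries of both sexes, so not all 3 libraries of a group are repeats of one source. Between libraries of the same sex the spread may be technical. The groups are not matched for sex: iMPC library 3 and myoblast libraries 1 and 2 expressed Y-linked genes, and the other 3 expressed Xist. Mitochondrial transcripts took 2.31 to 3.20% of reads in iMPCs and 6.86 to 9.40% in myoblasts, with the highest share in myoblast library 3, and their part in the results was not tested. In RNA of a cell population, fewer cells of a type and less RNA per cell cannot be told apart. Of the 172 genes named with values below, 81 had a summed count that was not whole in at least 1 of the 6 libraries, which means that reads were shared with another gene and the level is uncertain by an unknown amount.

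Sorted iMPCs and sorted myoblasts differed in 5199 of 17325 genes tested (30.0%), with 2153 genes higher in iMPCs (12.4%) and 3046 lower (17.6%). The counts of list members called below stand against these shares. A gene was called at an adjusted p under 0.05 (edgeR's quasi-likelihood test, Benjamini-Hochberg adjustment over all genes tested) and a log2 fold change of 1 or more in either direction, which is 2-fold. All log2 fold changes are iMPC over myoblast. Over all genes tested the median was -0.07 on the log2 scale. In 8220 genes (47.4%) the 3 libraries of one group all lay above the 3 of the other, 3973 (22.9%) with iMPCs higher and 4247 (24.5%) with iMPCs lower. In the bulk cultures 3396 genes (19.6%) were called, of which 1466 were called in the same direction as in the sorted cells, which is 28.2% of the sorted and 43.2% of the bulk calls. A further 197 genes were called in opposite directions. The bulk values stand beside those of the sorted cells below, with the test of the difference between both comparisons (sorted minus bulk, from the same fit), in which 4172 genes (24.1%) were called. The 6 sorted libraries were quantified with another fragment length than the unsorted ones (a median of 180.03 bases between length and effective length, against 138.28 to 152.81), so in that difference the sort and the quantification cannot be told apart.

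**Figure D1:**
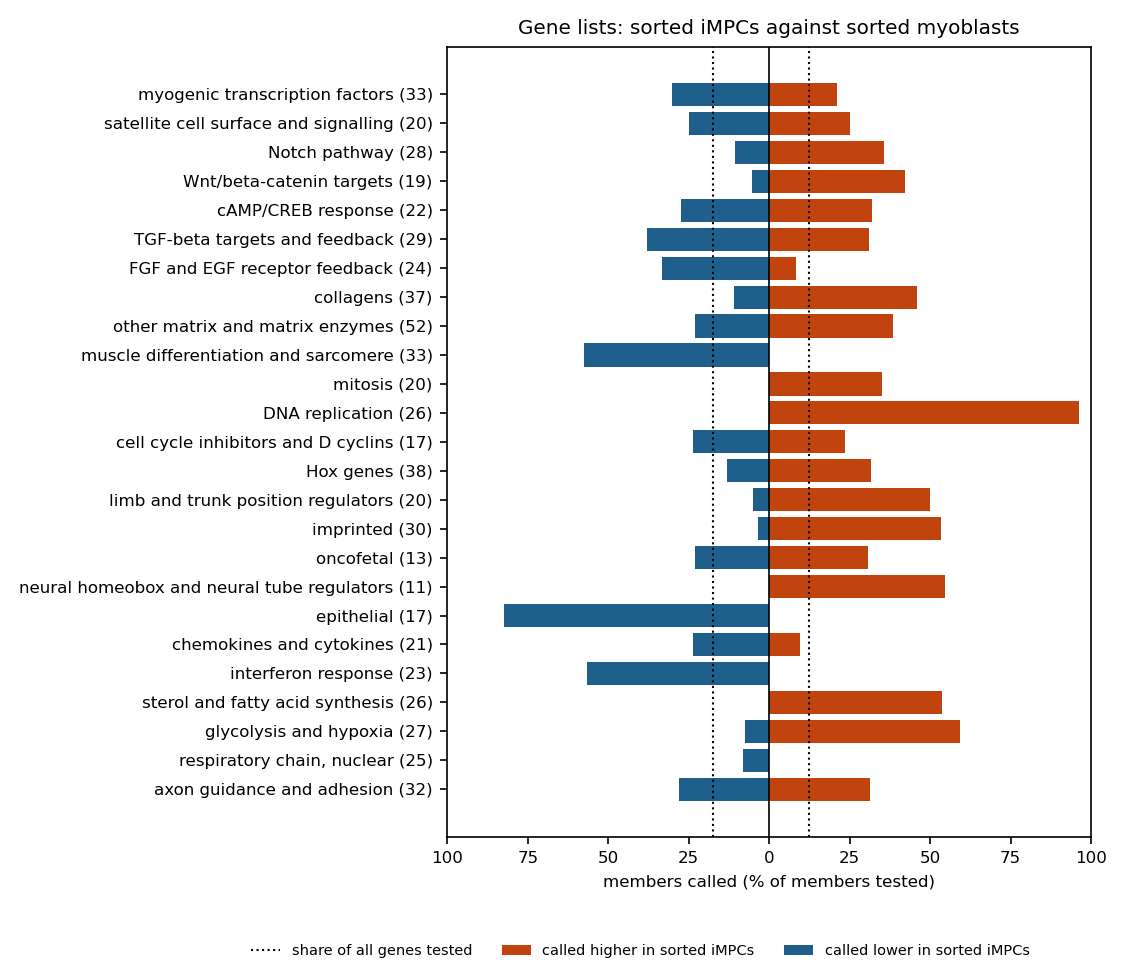
Share of the tested members of each gene list that were called higher (right) or lower (left) in sorted iMPCs than in sorted myoblasts, in percent of members; the number tested stands beside each name and the dotted lines mark the share of all 17325 genes called in that direction (12.4% and 17.6%). The DNA replication list reaches 96.2% on the right, and the epithelial list reaches 82.4% on the left.

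The genes with the largest differences were nearly silent in one group. Ranked genes had to be called, without overlap between the groups and with a mean of 10 CPM or more in the higher group. Their separation was set by this selection and is no further evidence. Slc38a4, an imprinted amino acid transporter gene (chromosome 15, 96994820 to 97055956 in GRCm38), had 248, 176 and 300.1 CPM in iMPC libraries 1 to 3 and 0.0706, 0.6 and 0 CPM in myoblast libraries 1 to 3. It was high in every iMPC library and near 0 in every myoblast library (log2 fold change 9.91 with SE 0.81, adjusted p 7.6e-11, 12.35 without myoblast library 2), and bulk iMPCs showed the same direction (8.69). The endothelin gene Edn3 had 27.5, 108 and 94.5 CPM in iMPCs and no read in any sorted myoblast library, a level at least 614-fold higher in iMPCs than the floor of 3 reads per library. Slit3, a secreted guidance ligand, had 127, 8.00 and 6.82 CPM against none, at least 378-fold higher, with most of its reads in iMPC library 1 (59.3-fold without iMPC library 1). Moxd1, a monooxygenase-like gene, had 10.4, 86.3 and 266 CPM against none, at least 968-fold higher, with the lowest level in iMPC library 1 (387-fold without iMPC library 3). Prrt3, a proline-rich membrane protein gene, had 13.8, 36.4 and 60.9 CPM in iMPCs and 0.0706, 0.0353 and 0 CPM in myoblasts, where 3 reads were counted over the group, a ratio of 927-fold (95% counting interval 317 to 4495). The ranked genes with the smallest p among those higher in iMPCs included Mogs, a glucosidase of N-glycan processing (log2 fold change 2.04 with SE 0.16, adjusted p 2.3e-11), and Nsmce4a, a subunit of the Smc5/6 complex (log2 fold change 1.95 with SE 0.15, adjusted p 2.8e-11).

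On the other side, Alox5, the 5-lipoxygenase of leukotriene synthesis (chromosome 6, 116410077 to 116461178), had 0.65, 3.19 and 0.724 CPM in iMPCs and 396, 226 and 196 CPM in myoblasts. The log2 fold change of Alox5 was -7.45 with SE 0.74 (adjusted p 2.5e-09, -8.59 without iMPC library 2). Adgrg1, an adhesion G protein-coupled receptor, had 0.0867, 0.0404 and 0.258 CPM against 21.7, 40.5 and 22.4 CPM (log2 fold change -7.81 with SE 0.58, adjusted p 2.3e-11, -8.67 without iMPC library 3). The vesicle fusion protein Vamp8 had the smallest p among ranked genes, with 1.82, 1.21 and 0.827 CPM against 30.3, 18.7 and 25.1 CPM (log2 fold change -4.25 with SE 0.26, adjusted p 2.2e-13). Its 3 values were close to one another within each group. Pln, phospholamban of the sarcoplasmic reticulum, had 1 read over all iMPC libraries and 3.25, 2.51 and 72.3 CPM in myoblasts, a ratio of 1749-fold (95% counting interval 314 to 69076), with most of its reads in myoblast library 3 (193-fold without myoblast library 3). Fam19a5, a secreted chemokine-like gene, had no read in sorted iMPCs and 27.7, 8.54 and 6.74 CPM in myoblasts, at least 106-fold lower in iMPCs than those myoblast levels when set against the floor (56.4-fold without myoblast library 1).

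Myogenic transcription factors were called in both directions. Of 33 tested, 7 were higher and 10 lower in iMPCs (12.4% and 17.6% of all genes), with a median log2 fold change of -0.19 against -0.07 over all genes. Pax7 itself, used for the sort, was present in all 6 libraries at 263, 351 and 305 CPM in iMPCs and 813, 674 and 349 CPM in myoblasts. Myoblast libraries 1 and 2 lay well above the iMPCs and myoblast library 3 lay at their upper end, so the difference did not pass the test (log2 fold change -0.999 with SE 0.43, adjusted p 0.055). Without myoblast library 3 it was called, at -1.28. In bulk cultures Pax7 was called lower in iMPCs (61.7 ± 21.1 against 489 ± 130.4 CPM, SD, n = 3 each, log2 fold change -2.99), and the sorted difference was smaller in size than the bulk one by 1.99 log2 units (adjusted p 0.012). Its paralog Pax3 was called lower, with 0.173, 0.0404 and 0.155 CPM in iMPCs and 14.8, 12.1 and 1.36 CPM in myoblasts (log2 fold change -6.23 with SE 0.93, adjusted p 2.2e-06).

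Among the regulators upstream and beside MyoD, Lbx1, which marks migrating limb muscle precursors, had 0.433, 0.364 and 0 CPM in iMPCs and 20.4, 17.7 and 27.4 CPM in myoblasts. It was near 0 in every iMPC library (log2 fold change -6.28 with SE 0.67, adjusted p 1.5e-08). Msc (musculin, a basic helix-loop-helix repressor of satellite cells and head muscle) was on the other side, with 39.9, 56.1 and 211 CPM in iMPCs and 0.0353, 0.353 and 0.544 CPM in myoblasts. The groups were far apart (log2 fold change 8.42 with SE 1.07, adjusted p 1.8e-07), and the value was 7.37 without iMPC library 3 and 9.01 without myoblast library 3. Eya1, a transcriptional co-activator with phosphatase activity, had 63.3, 78.9 and 58.2 against 11.9, 12.7 and 19.6 CPM (log2 fold change 2.18).

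The muscle regulatory factors were lower in iMPCs, each with a call near the threshold that was lost in several fits that left out a single library. Myf5 had 38.6, 27.8 and 65.4 CPM in iMPCs and 106, 136 and 94.4 CPM in myoblasts, Myod1 had 132, 250.0 and 216 and 465, 409.6 and 813 CPM, and Myog had 139, 190.0 and 266 and 418, 892 and 1276 CPM. In all 3 genes every iMPC library lay below every myoblast library. The log2 fold changes were -1.35 (adjusted p 0.036), -1.50 (0.031) and -2.12 (0.024). Calls were lost for Myf5 at -1.26 without iMPC library 1, -1.06 without iMPC library 2, -1.39 without myoblast library 1 and -1.14 without myoblast library 2, for Myod1 at -1.27 without iMPC library 1, -1.52 without iMPC library 3 and -1.13 without myoblast library 3, and for Myog at -1.91 without iMPC library 1, -2.04 without iMPC library 2 and -1.72 without myoblast library 3. The count of factors called lower was 10 with all libraries and 6 without iMPC library 1. Per length, in the authors' deposited TPM (a unit corrected for length), Myog was the highest of the 3 in both groups, with a mean of 181 TPM in iMPCs and 796 TPM in myoblasts, against 43.0 and 118 TPM for Myf5. Mef2a, a MADS-box partner of MyoD, was lower by more (97.8, 128 and 163 against 543, 534 and 1396 CPM, log2 fold change -2.67, -2.05 without myoblast library 3).

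The E proteins that pair with MyoD and the Id proteins that sequester them were higher in iMPCs where they were called. Tcf3 had 220.1, 199 and 239 CPM in iMPCs and 118, 80.1 and 84.4 CPM in myoblasts (log2 fold change 1.22), and Tcf4 had 405, 443 and 413 against 151, 174 and 162 CPM (1.37). Id3 had 143, 208 and 120.3 against 89.1, 47.5 and 43.6 CPM (1.38). In each of these genes the groups did not overlap. Tcf12, Id1 and Id2 were not called (log2 fold changes -0.06, 0.51 and 0.78). For Tcf3 and Id3 the bulk cultures differed the other way (-1.32 and -2.07, both called), and the sorted minus bulk differences were 2.54 (adjusted p 3.5e-05) and 3.45 (9.3e-06). Bhlhe41, a transcriptional repressor, was lower in iMPCs (7.37, 4.85 and 1.50 against 33.3, 61.4 and 62.2 CPM, log2 fold change -3.51).

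**Figure D2:**
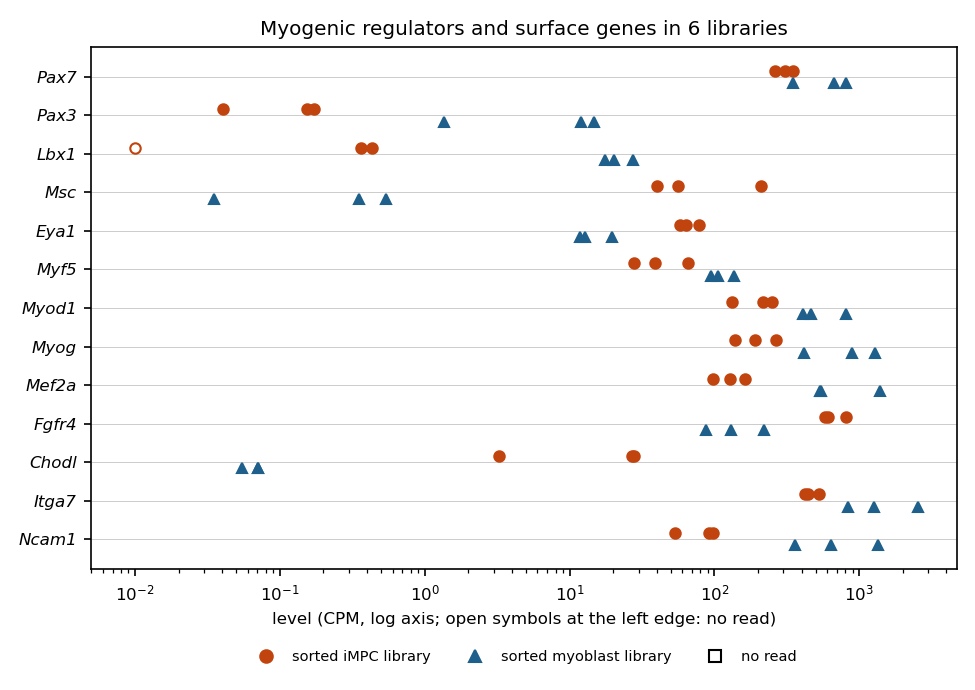
Levels in CPM on a log axis of 13 myogenic regulators and surface genes in each of the 3 sorted iMPC libraries (circles) and the 3 sorted myoblast libraries (triangles); libraries without a read are drawn as open symbols at the left edge. Pax7 overlaps only at its edges, Pax3 and Lbx1 are near 0 in iMPCs and Msc is near 0 in myoblasts.

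Of 20 surface and signalling genes of satellite cells, 5 were higher in iMPCs and 5 lower (12.4% and 17.6% of all genes), with a median of -0.32. The FGF receptor Fgfr4 had 607, 577 and 815 CPM in iMPCs and 87.7, 130.2 and 221 CPM in myoblasts, with every iMPC library higher (log2 fold change 2.19 with SE 0.55, adjusted p 0.0015). Igf1r, the receptor of insulin-like growth factors, had 275, 206 and 217 against 70.0, 88.5 and 103 CPM (log2 fold change 1.42 with SE 0.15, adjusted p 9.7e-09). Chodl, a membrane lectin of satellite cells, had 3.25, 27.0 and 28.1 CPM in iMPCs and 0.0706, 0.0706 and 0.0544 CPM in myoblasts (log2 fold change 8.08 with SE 1.07, adjusted p 3.8e-07), while the bulk value of 1.26 was not called, and the sorted minus bulk difference was 6.83 (adjusted p 0.00085). Lower in iMPCs were the laminin receptor subunit Itga7 (530.1, 442 and 423 against 1262, 839.6 and 2541 CPM, log2 fold change -1.73), N-cadherin Cdh2 (42.7, 105 and 22.5 against 388, 271 and 639 CPM, -2.93, -3.69 without iMPC library 2) and the adhesion molecule Ncam1 (92.5, 97.7 and 53.7 against 361, 642 and 1345 CPM, -3.27, -2.63 without myoblast library 3). M-cadherin Cdh15, Met, Megf10, Cxcr4 and Cd34 did not pass the test, with log2 fold changes of 0.36, -0.75, -0.34, -0.31 and -2.04.

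Notch pathway genes that were called lay mostly on the iMPC side, 10 higher and 3 lower of 28 tested (12.4% and 17.6% of all genes). The median was 0.34. Among the receptors, Notch3 had 712, 654 and 620.5 CPM in iMPCs and 176, 132 and 44.4 CPM in myoblasts, all iMPC libraries being higher (log2 fold change 2.49 with SE 0.51, adjusted p 0.00018). Notch1 and Notch2 were not called (0.74 and 0.19). The ligand Jag1 had 25.3, 43.2 and 28.5 against 6.35, 12.5 and 2.50 CPM (log2 fold change 2.17, 2.89 without myoblast library 2), and Lfng, a glycosyltransferase that tunes how Notch reads its ligands, had 58.4, 63.8 and 91.3 against 2.82, 3.35 and 0.163 CPM (5.04). Of the transcriptional targets, Heyl had 137, 509 and 347 CPM in iMPCs and 26.8, 26.4 and 40.6 CPM in myoblasts (log2 fold change 3.41 with SE 0.66, adjusted p 8.8e-05). Hey1 had 137, 117 and 76.6 against 3.39, 33.4 and 14.5 CPM (2.69, 3.68 without myoblast library 2), and the feedback inhibitor Nrarp 8.58, 18.95 and 23.8 against 1.73, 1.80 and 3.80 CPM (2.81). Groups did not overlap in any of these 6 called genes (over all genes the share without overlap and higher in iMPCs was 22.9%). Hes1 was higher at an adjusted p of 0.0025 but by less than the minimum fold (0.83), and Hes6, which is expressed in differentiating myoblasts, was lower in iMPCs (56.7, 37.7 and 43.5 against 129.8, 85.4 and 179 CPM, -1.51). For Notch3 and Lfng the sorted minus bulk difference was called (2.90, adjusted p 0.002, and 5.17, adjusted p 0.00042), and for Heyl, Hey1 and Nrarp it was not (-0.16, -1.53 and -0.18).

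Of 19 tested targets of beta-catenin signalling, 8 were higher in iMPCs and 1 lower (12.4% and 17.6% of all genes). The median log2 fold change was 1.46. Axin2, a scaffold of the destruction complex and a feedback target, had 19.7, 16.8 and 19.4 CPM in iMPCs and 0.918, 1.73 and 2.50 CPM in myoblasts. The 3 values of each group were close together and far from the other group (log2 fold change 3.45 with SE 0.55, adjusted p 6.3e-06). Nkd1, another feedback inhibitor, had 61.1, 20.5 and 16.8 against 1.17, 1.13 and 0.815 CPM (4.96, 4.15 without iMPC library 1), and the R-spondin receptor Lgr5 47.8, 98.7 and 33.6 against 5.90, 2.19 and 0.761 CPM (4.33, 5.32 without myoblast library 1). Tnfrsf19 (Troy) had 26.2, 31.8 and 56.7 against 1.13, 2.89 and 1.41 CPM (log2 fold change 4.39 with SE 0.70, adjusted p 5.7e-06). Lef1 and Ccnd1, which are also targets, were not called (-1.12 and -0.48). Bulk iMPCs were higher in Axin2, Nkd1 and Lgr5 too (2.06, 2.74 and 3.13, all called), but Lef1 and Ccnd1 were called lower there (-2.234 and -2.185). Over the 19 targets, 7 were higher and 2 lower in bulk iMPCs (10.9% and 8.7% of all genes), with a median of 0.88. Apcdd1, the 1 target lower in iMPCs, had 5.16, 6.30 and 5.43 against 39.1, 5.79 and 7.61 CPM and was high in myoblast library 1 only (log2 fold change -1.64). Its call was lost in 4 of the 6 fits that left out a sorted library (-1.57 without iMPC library 1, -1.69 without iMPC library 2, -1.58 without iMPC library 3 and -0.24 without myoblast library 1).

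The letters ATCAAAG, which TCF and LEF factors bind, were searched on both strands in RefSeq promoter windows (build GRCm38.p6, 250 bases before to 50 after the gene start). They stood in 3.73% of all 32851 windows, in windows of 4.29% of all 27025 genes and in those of 2 of 13 matched targets, Sp5 and Tnfrsf19. The Tnfrsf19 window (chr14:61037938-61038237, minus strand) is shown because the gene was called, with the match in capitals.
Tnfrsf19: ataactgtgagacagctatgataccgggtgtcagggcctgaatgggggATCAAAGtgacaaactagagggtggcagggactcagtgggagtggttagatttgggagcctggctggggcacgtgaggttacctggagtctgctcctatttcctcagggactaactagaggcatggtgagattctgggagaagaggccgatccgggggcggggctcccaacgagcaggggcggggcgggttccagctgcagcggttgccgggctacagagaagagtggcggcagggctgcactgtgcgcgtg

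Among cyclic AMP response genes 7 of 22 were higher and 6 lower (12.4% and 17.6% of all genes), with a median of -0.46. The cyclic AMP response element TGACGTCA, searched the same way, stood in 1.79% of windows and in windows of 2.03% of all genes. It stood in those of 2 of 18 matched members, Areg and Dusp1, neither of which was called. Fos had 93.0, 61.0 and 31.4 CPM in iMPCs and 5.26, 4.55 and 3.59 CPM in myoblasts, every iMPC library being higher (log2 fold change 3.78 with SE 0.30, adjusted p 2.8e-11). The phosphodiesterase Pde4b, which degrades cyclic AMP, had 158, 190.1 and 161 against 35.3, 23.1 and 25.6 CPM (log2 fold change 2.60 with SE 0.35, adjusted p 3.9e-07). Pde3a had 8.80, 21.3 and 6.51 against 0.141, 0.247 and 0 CPM (log2 fold change 6.37, 5.73 without iMPC library 2 and 7.15 without myoblast library 2). Ppargc1a, the co-activator of mitochondrial biogenesis, was lower, with 0.563, 0.0808 and 0.155 CPM in iMPCs and 24.4, 38.1 and 24.5 CPM in myoblasts (log2 fold change -6.73 with SE 0.79, adjusted p 5.2e-08, -7.91 without iMPC library 1). Nr4a1 and Nr4a2 were not called (-1.17 and -0.78), and Nr4a3 was lower in iMPCs (-3.66, -4.30 without iMPC library 2 and -2.80 without myoblast library 3). In bulk cultures 7 of the 22 genes were higher in iMPCs and 2 lower (10.9% and 8.7% of all genes), with a median of 0.72. The sorted minus bulk difference was called lower for 8 (14.2% of all genes) and higher for 0. Nr4a1 was 1 of the 8, called higher in bulk iMPCs (2.66), with a difference of -3.835. Fos and Fosb also belong to the list of 12 dissociation and stress genes, of which 7 were higher and 2 lower in iMPCs and whose summed level was 3869 to 4083 CPM in iMPCs and 2058 to 3015 CPM in myoblasts. Hspa8, a constitutive chaperone that was not called (0.56), made up most of that sum, and the other 11 genes summed to 577 to 917 CPM in iMPCs and 257 to 475 CPM in myoblasts. The part of handling in the difference of Fos was not tested. The stress gene Ddit3 was lower in iMPCs, with 6.15, 4.57 and 6.00 CPM against 11.2, 171 and 100.0 CPM (-4.08, -3.26 without myoblast library 2), high in myoblast libraries 2 and 3. Atf3 was called lower with overlapping groups, at 7.76, 1.41 and 2.84 against 2.22, 48.5 and 37.3 CPM (-2.87, -3.79 without iMPC library 1 and -2.25 without myoblast library 2), and was not called with only the sorted libraries fitted.

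In the TGF-beta list 9 of 29 genes were higher and 11 lower in iMPCs (12.4% and 17.6% of all genes), with a median of -0.98. Of the feedback targets, Pmepa1 and Skil were called lower: Pmepa1 had 8.49, 4.89 and 2.48 CPM in iMPCs and 78.1, 78.1 and 119 CPM in myoblasts, and Skil had 20.3, 10.3 and 15.04 against 64.0, 89.4 and 80.7 CPM. In both genes every iMPC library lay below every myoblast library (log2 fold change -4.11 with SE 0.43, adjusted p 7.4e-09 for Pmepa1 and log2 fold change -2.36 with SE 0.26, adjusted p 1.7e-08 for Skil). Both were called lower in bulk iMPCs as well (-2.22 and -1.82). Ldlrad4, a related inhibitor, had a log2 fold change of -3.46 (-4.46 without iMPC library 1), and Itgb6, a subunit of an integrin that activates latent TGF-beta, had 2.82, 3.31 and 3.00 against 32.0, 31.3 and 47.1 CPM (-3.59). Smad7 and Ccn2 did not pass the test (-0.67 and -1.67), and Ccn1 was lower (-1.48). The type I receptor Tgfbr1 was higher (135, 112 and 109 against 47.7, 21.5 and 25.6 CPM, 1.91). In the BMP branch the antagonist Nog had 16.4, 11.7 and 11.5 against 0.106, 1.62 and 0.707 CPM (4.01, 5.16 without myoblast library 2). The ligand Bmp7 had 11.9, 1.37 and 39.9 against 0.177, 0.0353 and 0.217 CPM (6.95, 7.55 without iMPC library 2 and 5.56 without iMPC library 3). Without iMPC library 1 the list had 5 members higher. In bulk cultures 7 of the 29 genes were higher in iMPCs and 4 lower (10.9% and 8.7% of all genes), with a median of 0.36. The sorted minus bulk difference was called higher for 3 and lower for 10 (9.87% and 14.2% of all genes).

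**Figure D3:**
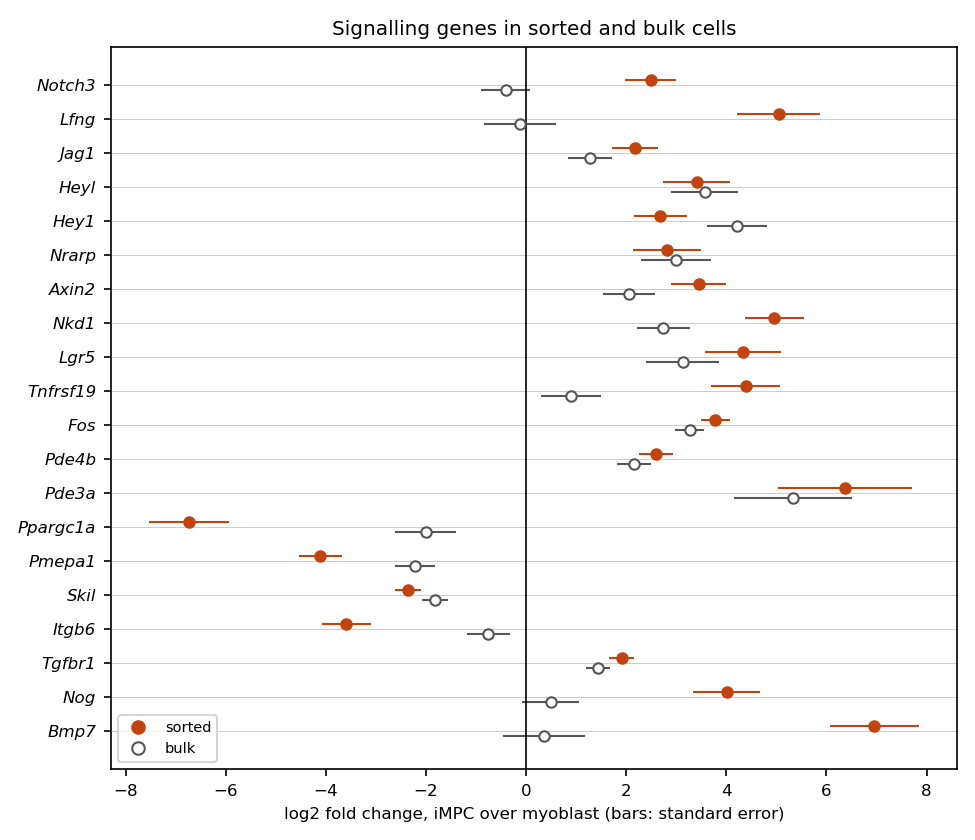
Log2 fold change (iMPC over myoblast) with its standard error of 20 signalling genes in the sorted comparison (filled) and in the bulk comparison (open). The beta-catenin targets drawn (Axin2, Nkd1, Lgr5 and Tnfrsf19) lie right of 0 and Skil and Pmepa1 left of 0 in both comparisons. Notch3 and Lfng lie right of 0 in the sorted comparison and near 0 in the bulk one.

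The differentiation programme of muscle was lower in sorted iMPCs. None of 33 sarcomere and differentiation genes was higher and 19 were lower, with a median log2 fold change of -2.32 (-0.07 over all genes tested). Promoters are shown for 4 of the genes called lower that hold the letters CAGCTG, an E-box of the kind that myogenic factors bind, in the window from 250 bases before to 50 bases after the gene start. Among the 33 genes, 27 matched a RefSeq promoter and 12 held the letters (44.4%), against 18.3% of all 27025 genes and 16.3% of all 32851 windows; the letters read the same on both strands. Of the 16 matched genes called lower, 7 held them. Members that were not called held them too, among them Atp2a1 and Des. A relation between the letters and the calls was not tested. The windows are from RefSeq, build GRCm38.p6, written 5′ to 3′ on the gene's strand with the E-box in capitals: chr8:123894726-123895025 (minus strand) for skeletal actin, chr1:135836084-135836383 (plus strand) for cardiac troponin T, chr7:127211358-127211657 (plus strand) for the fast regulatory light chain and chr1:134193198-134193497 (plus strand) for myosin binding protein H. A match describes the letters and not a bound site.
Acta1: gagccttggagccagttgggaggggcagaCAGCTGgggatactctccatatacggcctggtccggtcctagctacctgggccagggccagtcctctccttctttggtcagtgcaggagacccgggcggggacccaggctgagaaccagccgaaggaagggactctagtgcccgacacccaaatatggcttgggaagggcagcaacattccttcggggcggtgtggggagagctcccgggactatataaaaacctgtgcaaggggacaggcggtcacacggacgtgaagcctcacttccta
Tnnt2: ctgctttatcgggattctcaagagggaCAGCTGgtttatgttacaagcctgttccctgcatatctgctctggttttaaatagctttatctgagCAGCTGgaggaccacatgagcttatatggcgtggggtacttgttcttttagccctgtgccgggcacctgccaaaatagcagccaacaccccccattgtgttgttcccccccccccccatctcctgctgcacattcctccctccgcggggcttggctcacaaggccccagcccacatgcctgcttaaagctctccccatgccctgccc
Mylpf: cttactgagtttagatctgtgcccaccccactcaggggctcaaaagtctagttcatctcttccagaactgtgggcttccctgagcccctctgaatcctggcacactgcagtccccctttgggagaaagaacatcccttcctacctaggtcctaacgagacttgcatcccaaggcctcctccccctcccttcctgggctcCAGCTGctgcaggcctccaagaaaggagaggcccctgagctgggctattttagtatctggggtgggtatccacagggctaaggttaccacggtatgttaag
Mybph: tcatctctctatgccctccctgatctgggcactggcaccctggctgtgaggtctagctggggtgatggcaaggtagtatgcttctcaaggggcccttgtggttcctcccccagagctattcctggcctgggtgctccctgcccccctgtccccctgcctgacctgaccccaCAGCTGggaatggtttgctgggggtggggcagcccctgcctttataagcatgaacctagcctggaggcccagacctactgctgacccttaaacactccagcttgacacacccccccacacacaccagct

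Acta1 had 148, 346 and 128 CPM in sorted iMPCs and 921, 1376 and 5332 CPM in sorted myoblasts. All iMPC libraries were lower, and myoblast library 3 was by far the highest (log2 fold change -3.62 with SE 0.73, adjusted p 0.00015, -2.48 without myoblast library 3). Tnnt2 had 43.8, 61.8 and 60.0 against 369, 509.8 and 1342 CPM (-3.74, -2.99 without myoblast library 3), Mylpf 75.6, 161 and 73.5 against 367, 368 and 2040.5 CPM (-3.16, -1.83 without myoblast library 3) and Mybph 36.6, 49.3 and 32.1 against 270.2, 515 and 1185 CPM (-4.06, -3.33 without myoblast library 3). Mymk (myomaker), the membrane protein of myoblast fusion, had 32.6, 56.1 and 31.4 against 238, 301 and 1189 CPM (-3.85, -2.76 without myoblast library 3). The giant scaffold proteins titin and nebulin followed, Ttn with 55.9, 136 and 101 against 488, 544 and 1897 CPM (-3.32, -2.40 without myoblast library 3) and Neb with 98.4, 81.5 and 60.1 against 275, 349.7 and 947 CPM (-2.71, -1.97 without myoblast library 3). Cacna1s, the calcium channel of the triad, had 7.28, 15.1 and 5.79 against 31.6, 62.1 and 93.2 CPM (log2 fold change -2.73 with SE 0.69, adjusted p 0.0015). Members that did not pass include Actc1, Tnnt1, Tnnc2, Atp2a1 and Des (-0.34, 0.87, -0.99, 0.17 and -0.44).

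These genes are also the markers of myotubes, the fused cells that a Pax7 gate should not hold. The summed level of 9 myotube markers was 717 to 1506 CPM in iMPCs and 3833, 4423 and 13642 CPM in myoblast libraries 1 to 3, with 7 of the 9 lower in iMPCs. Without myoblast library 3, 12 of the 33 sarcomere and differentiation genes and 4 of the 9 markers were called lower, and without iMPC library 1 the numbers were 13 and 4. In the bulk cultures 3 of the 33 genes were higher in iMPCs (10.9% of all genes) and none lower (8.7%), the median being 0.44. The sorted minus bulk difference was called lower for 15 of 33 (14.2% of all genes), for 6 without myoblast library 3 and for 2 when only the libraries of the groups compared were fitted. For Acta1 that difference was -3.87 (adjusted p 0.0026).

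Genes of DNA replication were higher in sorted iMPCs almost without exception. Of 26 tested, 25 were higher and none lower, with a median log2 fold change of 1.72, and leaving out single libraries left 20 to 26 called. Mcm2, a subunit of the replicative helicase, had 353, 302 and 329 CPM in iMPCs and 105, 67.3 and 40.0 CPM in myoblasts. The iMPC values were close together, and the myoblast values were all lower, the lowest in library 3 (log2 fold change 2.21 with SE 0.37, adjusted p 1.1e-05). The sliding clamp Pcna had 306, 303 and 348 against 153, 92.8 and 50.4 CPM (log2 fold change 1.69 with SE 0.31, adjusted p 3.9e-05) and the licensing factor Cdt1 95.5, 97.7 and 115 against 36.7, 30.1 and 14.0 CPM (1.93). Ccne1, the cyclin of S-phase entry, showed the largest difference of the list, with 318, 316 and 414 against 46.8, 32.5 and 28.7 CPM (log2 fold change 3.28 with SE 0.34, adjusted p 6.6e-09). Rrm2, the remaining member, was not called (0.92). In bulk cultures 1 of the 26 was higher and 2 lower (10.9% and 8.7% of all genes), and the sorted minus bulk difference was called higher for 22 (9.87% of all genes), for 14 without myoblast library 3. For Mcm2 it was 2.70 (adjusted p 0.00018).

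Mitosis genes lay on the same side with a weaker call. In all 20 tested every iMPC library was above every myoblast library (22.9% of all genes), and 7 were called, with a median of 1.15. Plk1, the polo kinase of mitotic entry, had 96.4, 85.1 and 117 CPM in iMPCs and 37.6, 29.0 and 25.4 CPM in myoblasts (1.70, adjusted p 0.011), a call lost at 1.58 without myoblast library 3. The proliferation marker Mki67 had 429, 561 and 602 against 193, 157 and 122 CPM (1.75, adjusted p 0.018, lost at 1.60 without myoblast library 3). The number called was 0 without myoblast library 3, 2 without iMPC library 3, 3 without myoblast library 2, 4 without iMPC library 2, 3 with no filter on low counts, 12 when only the 6 sorted libraries were fitted, and 12 by DESeq2.

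A list of cell cycle inhibitors and D cyclins was split, with 4 of 17 genes higher and 4 lower (12.4% and 17.6% of all genes). Cdkn1a (p21), induced as myoblasts exit the cycle, had 176, 293 and 189 CPM in iMPCs and 758, 668 and 1673 CPM in myoblasts, lower in each iMPC library (log2 fold change -2.24 with SE 0.31, adjusted p 7.8e-07). Cdkn1c (p57), an imprinted inhibitor, went the other way with 468, 977 and 1922 against 44.8, 10.4 and 45.01 CPM (log2 fold change 5.07 with SE 0.93, adjusted p 4.4e-05, 4.48 without iMPC library 3), also in bulk (5.88). The cyclin Ccnd2 had 19.5, 67.6 and 20.1 against 703, 393 and 511 CPM (log2 fold change -3.90 with SE 0.48, adjusted p 1.1e-07, -4.72 without iMPC library 2), whereas Ccnd1 and Ccnd3 were not called (-0.48 and 0.54). The retinoblastoma gene Rb1 was lower (27.1, 39.9 and 56.8 against 100.2, 144 and 228 CPM, -1.93) and Gas1, a growth-arrest membrane protein, higher (184, 269 and 246 against 53.5, 64.9 and 39.2 CPM, 2.15). Without myoblast library 3 the number higher was 2.

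**Figure D4:**
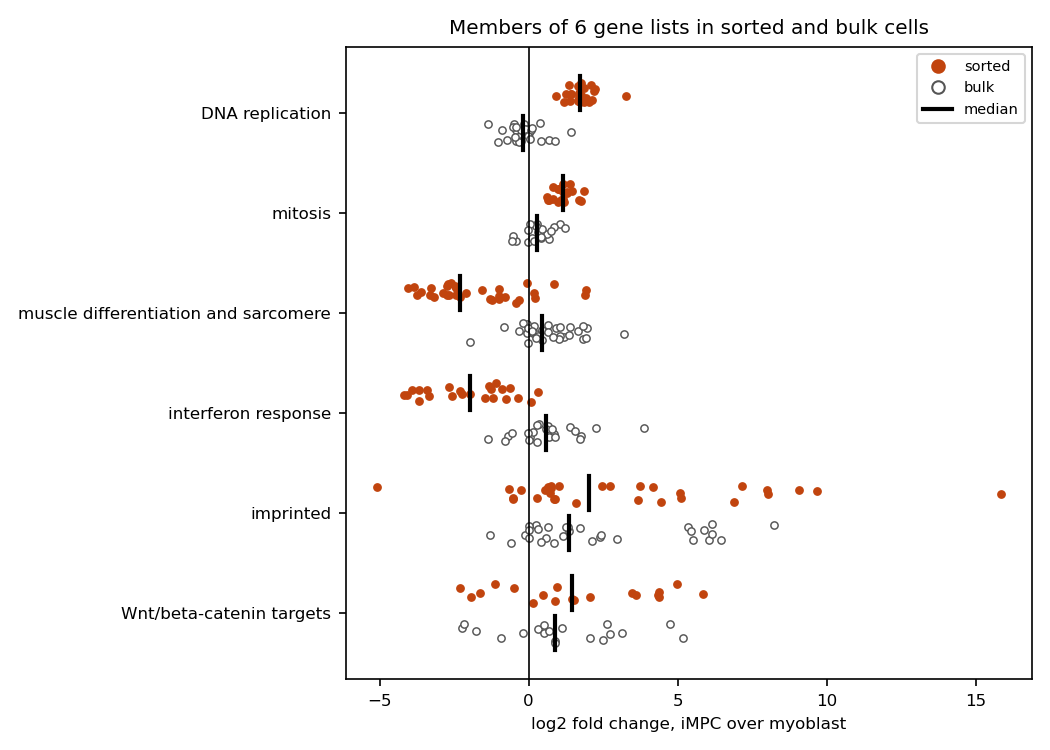
Log2 fold change (iMPC over myoblast) of every tested member of 6 gene lists in the sorted (filled) and the bulk (open) comparison, with the median of each as a bar; the fitted value of a gene without reads in one group depends on the prior count and is no measured fold. DNA replication members lie right of 0 and sarcomere and interferon members mostly left of 0 in the sorted comparison, while the bulk medians of these lists are -0.21, 0.44 and 0.59; imprinted members lie mostly right of 0 in both.

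Imprinted genes, which are expressed from one parental allele and many of which are active in fetal tissue, were frequently higher in iMPCs: 16 of 30 were higher and 1 lower, with a median of 2.02 (1.34 in bulk). The maternally expressed RNAs of the Dlk1 to Dio3 domain on chromosome 12 were among them. Meg3 had 162, 212 and 507 CPM in iMPCs and 3.81, 3.32 and 0.109 CPM in myoblasts, and Rian 126, 122 and 237 against 1.20, 0.565 and 0 CPM. The groups were more than an order of magnitude apart in every pair of libraries (for Meg3 log2 fold change 6.89 with SE 0.74, adjusted p 9.7e-09, 6.27 without iMPC library 3, and for Rian log2 fold change 8.00 with SE 0.60, adjusted p 2.3e-11, 8.95 without myoblast library 1). The paternally expressed genes of the same domain had no read in any sorted myoblast library: Dlk1, a Notch-related membrane protein, had 38.6, 286 and 626 CPM in iMPCs (at least 2537-fold higher than the floor, 1301-fold without iMPC library 3). Rtl1 had 0.997, 5.98 and 6.20 CPM (at least 35.2-fold) and Dio3, a deiodinase, 5.59, 1.90 and 1.09 CPM (at least 22.9-fold, 11.9-fold without iMPC library 1).

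Elsewhere in the genome Nnat, the proteolipid neuronatin, had 711, 635 and 524 CPM in iMPCs and 6.74, 0.106 and 0 CPM in myoblasts (log2 fold change 8.04 with SE 1.08, adjusted p 4.5e-07, 13.15 without myoblast library 1). Peg10, a retrotransposon-derived gene, had 2077, 1723 and 2781 against 198, 130.1 and 40.4 CPM (log2 fold change 4.16 with SE 0.60, adjusted p 1.2e-06), Plagl1, a zinc-finger regulator of the imprinted network, 913, 1654 and 1836 against 194, 139 and 464 CPM (2.47, 3.14 without myoblast library 3) and Mest 3300.4, 1590.3 and 2976 against 518, 448 and 234 CPM (2.71). Not every member was called: H19, Igf2 and Peg3 did not pass the test (-0.54, 0.76 and 0.55), and Igf2r was higher at an adjusted p of 0.032 but by less than the minimum fold (0.70). Of the oncofetal genes, Igf2bp1, an RNA-binding protein of embryonic tissue, was higher (72.8, 17.5 and 32.1 against 5.90, 3.92 and 0.326 CPM, 3.56, 2.85 without iMPC library 1 and 4.20 without myoblast library 1). So was Trim71, a let-7 target (64.5, 37.4 and 28.0 against 2.65, 1.80 and 1.47 CPM, 4.44). Hmga2, a chromatin protein of proliferating progenitors, was lower (26.0, 8.53 and 5.22 against 276, 88.4 and 191 CPM, -3.80, -4.74 without iMPC library 1). Lin28b had no read in iMPCs and 1.45, 0.176 and 0.707 CPM in myoblasts (at least 5.74-fold lower, 3.26-fold without myoblast library 1).

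Some positional genes differed between the groups, and some between libraries of one group. Of 38 Hox genes tested, 12 were higher and 5 lower in iMPCs (12.4% and 17.6% of all genes, median 0.63). In 4 and 6 the groups did not overlap (22.9% and 24.5% of all genes). Without iMPC library 3 there were 7 higher and 2 lower, without myoblast library 2 there were 7 higher, without iMPC library 1 or myoblast library 3 there were 3 lower, and with only the 6 sorted libraries fitted there were 3 higher and 1 lower of 27 tested. Hoxc8 had 24.0, 14.5 and 50.4 CPM in iMPCs and 0.812, 0.0706 and 1.20 CPM in myoblasts (log2 fold change 5.47 with SE 0.56, adjusted p 5.2e-09, 4.89 without iMPC library 3 and 6.06 without myoblast library 3). Hoxa4 had a smaller difference without overlap (6.63, 5.66 and 9.30 against 2.08, 1.48 and 1.90 CPM, 1.98). Within the HoxC cluster Hoxc4, Hoxc5, Hoxc6 and Hoxc8 were called higher in iMPCs and the posterior genes Hoxc10, Hoxc11, Hoxc12 and Hoxc13 lower, but Hoxc4, Hoxc5, Hoxc6, Hoxc10 and Hoxc12 overlapped between the groups and none of these 5 was called without iMPC library 3. Hoxc13 had 1 read over the iMPC libraries and 2.08, 0.212 and 16.3 CPM in myoblasts, a ratio of 415-fold (95% counting interval 74.5 to 16404), 77.1-fold without myoblast library 3. Hoxc11 had none and 2.19, 0.106 and 12.3 CPM (at least 36.0-fold lower in iMPCs, 8.47-fold without myoblast library 3). Both were highest in myoblast library 3. Hoxd13 had no read in myoblasts and 1.17, 2.14 and 1.14 CPM in iMPCs (at least 11.9-fold higher).

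Of 20 other regulators of limb and trunk position 10 were higher and 1 lower, with a median of 1.69, or 1.49 with genes that had no read in one group at their bound. Alx4 had 0.997, 5.70 and 9.82 against 0.141, 0.176 and 0 CPM (log2 fold change 5.47 with SE 0.78, adjusted p 1.1e-06, 4.81 without iMPC library 3). The dorsal limb factor Lmx1b had 12.6, 12.1 and 1.76 against 0.282, 0.0353 and 0.109 CPM (5.88, 6.95 without myoblast library 1). Without iMPC library 1 there were 6 higher, and with only the sorted libraries fitted 4 of 15. Of 28 listed homeobox and other regulators of the neural tube, 11 passed the filter on low counts, and 6 of those were higher in iMPCs. Lhx2 had 3.99, 6.47 and 10.1 against 1.02, 0.212 and 0.217 CPM (3.78, 4.97 without myoblast library 1) and Isl1 20.9, 10.8 and 8.79 against 0.424, 2.19 and 0.707 CPM (3.59, 4.63 without myoblast library 2), while Pax6, Olig2 and Neurog2 were below the filter. Dbx1 was almost confined to iMPC library 3 among the sorted libraries, with 1.21, 3.43 and 60.3 CPM in iMPCs and 1 read over the myoblast libraries.

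**Figure D5:**
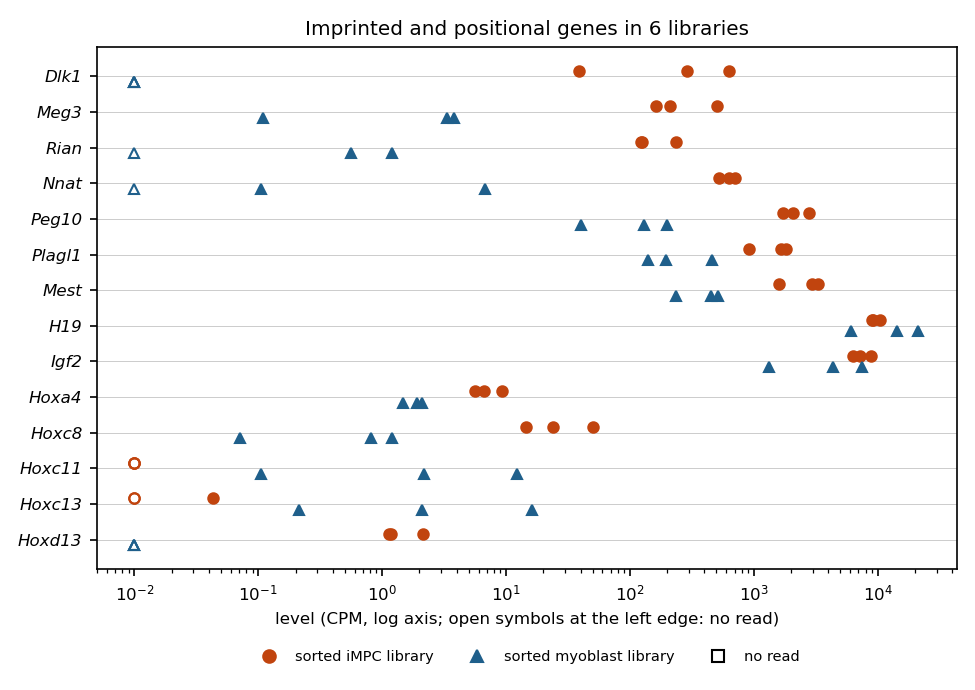
Levels in CPM on a log axis of 14 imprinted and positional genes in each sorted iMPC library (circles) and sorted myoblast library (triangles); libraries without a read are open symbols at the left edge. Meg3, Rian, Nnat and Peg10 are separated between the groups, H19 and Igf2 overlap, and Hoxc11 and Hoxc13 are highest in myoblast library 3.

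Matrix genes differed in both directions. Of 37 collagens 17 were higher in iMPCs and 4 lower (12.4% and 17.6% of all genes, median 1.26). Without myoblast library 1 there were 11 higher and 2 lower, without iMPC library 3 there were 2 lower, and without myoblast library 3 there were 7 lower. Col15a1, a basement membrane zone collagen, had 99.2, 1388 and 1499 CPM in iMPCs and 0.0353, 0.353 and 0.109 CPM in myoblasts, lowest among iMPCs in library 1 (log2 fold change 12.46 with SE 1.37, adjusted p 1.6e-08, 13.85 without myoblast library 2). Col6a6 had no read in myoblasts and 27.5, 321 and 121 CPM in iMPCs (at least 1253-fold higher, 595-fold without iMPC library 2). The basement membrane collagen Col4a2 had 597, 991 and 1014 against 159, 234 and 50.3 CPM (log2 fold change 2.55 with SE 0.38, adjusted p 1.8e-06), and Col26a1 141, 405 and 351 against 7.91, 14.4 and 4.73 CPM (5.05). The fibrillar collagens of fibroblasts, Col1a1, Col1a2 and Col3a1, were not called (1.11, -1.82 and 1.13).

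Of 52 other matrix genes 20 were higher and 12 lower (12.4% and 17.6% of all genes), with 13 higher without myoblast library 3. The median was 0.75, or 0.43 with genes without reads at their bound. Fbn2, the fibrillin of developing tissue, had 173, 117 and 106 CPM in iMPCs and 0.741, 0.353 and 0.163 CPM in myoblasts (log2 fold change 8.21 with SE 0.63, adjusted p 2.3e-11, 8.90 without myoblast library 1). Agrn, the heparan sulfate proteoglycan agrin, had 491, 285 and 260.1 against 62.2, 93.4 and 69.1 CPM (log2 fold change 2.21 with SE 0.21, adjusted p 1.6e-09). On the myoblast side were the thrombospondin Thbs1 (5.50, 34.2 and 3.05 against 679, 318 and 427 CPM, -5.05, -6.76 without iMPC library 2), the inhibitor Timp2 (161, 178 and 70.7 against 522, 518 and 526 CPM, -1.93) and osteoglycin, Ogn (3.51, 5.54 and 23.6 against 62.9, 179 and 234 CPM, -3.88, -5.09 without iMPC library 3). The laminin receptor subunits Itga6 and Itgb4 were lower in iMPCs as well, Itga6 with 47.5, 42.7 and 45.7 against 228, 189.7 and 272 CPM (log2 fold change -2.34 with SE 0.29, adjusted p 9.6e-08) and Itgb4 with 0.997, 2.51 and 0.465 against 223, 50.3 and 64.0 CPM (-6.38, -7.20 without iMPC library 2 and -5.40 without myoblast library 1).

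Itga6 and Itgb4 belong to a list of epithelial genes, of which 14 of 17 tested members were lower in iMPCs and none higher (median -3.36, or -2.90 with genes that had no read in one group at their bound). Apart from them the list was weakly expressed: 13 of 17 stayed under 10 CPM in every sorted library. E-cadherin, Cdh1, had 0, 0.0404 and 0.0517 CPM in iMPCs and 0.565, 0.353 and 0.38 CPM in myoblasts. Keratin 18, Krt18, had 0.173, 0 and 0 against 7.52, 4.24 and 1.09 CPM (log2 fold change -6.06, -9.64 without iMPC library 1, -5.44 without iMPC library 2 and -5.38 without myoblast library 1). The tight junction gene Cldn4 had 1 read over the iMPC libraries and 0.247, 0.0353 and 10.2 CPM in myoblasts, a ratio of 235-fold (95% counting interval 42.2 to 9288). That ratio rested on myoblast library 3: it was 9.49-fold without myoblast library 3, and the call was lost there, with a log2 fold change of -2.88. With a filter at 10 CPM in any 3 of the 45 libraries, sorted or not, 7 members were tested and all 7 were lower. Members could pass this filter through other groups, so it does not pick those well expressed in the sorted cells.

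Markers of fibroblasts, the cells from which iMPCs are made, were followed beside these matrix genes. Their summed level was 1417, 1480 and 736 CPM in iMPC libraries 1 to 3 and 637, 633 and 267 CPM in the myoblast libraries. Col3a1, which was not called, had the highest level of the 13. The other 12 summed to 407 to 540 CPM in iMPCs and 99.3 to 216 CPM in myoblasts. In iMPCs 4 of 13 were higher (Pdgfra, Pdgfrb, Dcn and Postn) and 1 lower (Ly6a). Dpt and Lum stayed at or under 0.260 CPM in all 6 libraries. Without iMPC library 1 there were 2 higher and Pdgfra stood at -0.34, against 3.29 with it. With only the sorted libraries fitted, 1 of 8 tested was higher, and their part in the matrix differences was not tested. Of the defining markers of other cells, Ptprc was at most 0.109 CPM, Cd52, Cldn5 and Rbfox3 had no read, and Sox10 was at most 0.155 CPM in any sorted library. The endothelial gene Vwf had 2.06 to 5.33 CPM in iMPCs and 7.73 to 10.3 CPM in myoblasts and the macrophage gene Cd68 3.60 to 7.60 and 1.52 to 7.48 CPM. The sums of the endothelial and immune lists (8 genes each) were 3.52 to 6.28 and 4.03 to 8.06 CPM in iMPCs, and 13.1 to 14.3 and 3.48 to 8.82 CPM in myoblasts, with Pecam1, Kdr and Lyz2 called lower in iMPCs. The other lists of 8 genes summed in iMPCs and in myoblasts to 22.4 to 103 and 59.5 to 250.0 CPM (Schwann and glial), 608 to 1193 and 784 to 1430.0 CPM (pericyte and smooth muscle), and 142 to 280 and 9.08 to 115 CPM (adipocyte). Single genes carried most of these sums: Erbb3, Des, which is also a muscle gene, and Lpl. The other 7 Schwann and glial members summed to 1.78 to 4.34 CPM in iMPCs and 6.85 to 8.75 CPM in myoblasts (Foxd3 called higher and Mbp lower). Those of the pericyte and smooth muscle list summed to 91.3 to 104 and 56.2 to 144 CPM (Cspg4, Kcnj8, Myh11 and Mcam higher and Rgs5 lower). Those of the adipocyte list summed to 2.43 to 4.81 and 2.01 to 8.19 CPM (Pparg lower). The calls of Pecam1, Kdr, Cspg4, Myh11 and Mcam were each lost in at least 1 fit that left out a single library, and Myh11 turned from 2.86 to -0.82 without iMPC library 2. Lpl, lipoprotein lipase, was called higher, with 139.7, 266 and 275 against 9.67, 106 and 7.07 CPM (2.46, 4.80 without myoblast library 2). Of 8 neuronal markers 3 were higher in iMPCs (Tubb3, Snap25 and Map2), with sums of 56.2 to 217 against 11.7 to 33.4 CPM. Map2 and Tubb3 carried most of these sums, and 4 of the 8 stayed under 1 CPM in every sorted library. Beside Map2 the other 7 summed to 12.3 to 164 CPM in iMPCs and 5.54 to 7.24 CPM in myoblasts. The highest of these sums was mostly Tubb3 in iMPC library 1. The call of Tubb3 was lost in 2 of the fits with only the sorted libraries.

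Interferon response and antigen presentation genes were lower in iMPCs, 13 of 23 tested with none higher and a median of -1.98. The class I heavy chain gene H2-K1 had 7.41, 1.29 and 1.24 CPM in iMPCs and 40.3, 51.5 and 36.4 CPM in myoblasts, with all iMPC libraries lower (log2 fold change -3.68 with SE 0.64, adjusted p 1.9e-05, -5.06 without iMPC library 1). Its partner B2m had 73.6, 62.8 and 60.2 against 172, 156 and 146 CPM (log2 fold change -1.27 with SE 0.33, adjusted p 0.0021), the peptide transporter Tap1 4.12, 12.1 and 2.48 against 37.5, 26.8 and 23.9 CPM (-2.23, -3.12 without iMPC library 2) and the checkpoint ligand Cd274 0.433, 0.202 and 0.413 against 1.84, 1.91 and 1.41 CPM (-2.29). H2-K1 and other class I genes are near-identical copies among which the authors' counts can divide reads. Isg15 and Irf1 did not pass the test (-1.98 and 0.31). In bulk cultures 4 of the 23 were higher and 1 lower (10.9% and 8.7% of all genes, median 0.59), and the sorted minus bulk difference was called lower for 14 (14.2% of all genes). For B2m it was -1.54 (adjusted p 0.011). Among 21 chemokines and cytokines 5 were lower and 2 higher (17.6% and 12.4% of all genes). Cxcl12, which attracts cells that carry Cxcr4, had 0.217, 0.242 and 0.569 CPM in iMPCs and 91.2, 41.9 and 39.7 CPM in myoblasts (log2 fold change -7.42 with SE 1.26, adjusted p 1.5e-05). The macrophage growth factor Csf1 had 26.5, 41.2 and 13.4 against 381, 296 and 130.4 CPM (-3.31).

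Among metabolic genes, calls lay mostly on the iMPC side. Of 26 genes of sterol and fatty acid synthesis 14 were higher and none lower (median 1.03), with 9 without iMPC library 3 and 7 with the replicate number as a block and only the sorted libraries fitted. Elovl6, an elongase of fatty acids, had 247, 276 and 259 CPM in iMPCs and 24.5, 28.7 and 10.1 CPM in myoblasts (log2 fold change 3.62 with SE 0.51, adjusted p 9.4e-07). Dhcr7, the last step of cholesterol synthesis, had 62.3, 37.9 and 78.0 against 10.7, 16.9 and 15.5 CPM (log2 fold change 2.04 with SE 0.31, adjusted p 2.7e-06) and Sqle, squalene epoxidase, 88.0, 52.5 and 96.3 against 33.4, 29.9 and 14.7 CPM (1.60). Fatty acid synthase, Fasn, was higher in sorted iMPCs (486, 396 and 448 against 245, 165 and 129 CPM, 1.30) and lower in bulk iMPCs (-1.81), a difference of 3.11 (adjusted p 7.1e-06).

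In the glycolysis and hypoxia list 16 of 27 were higher and 2 lower (median 1.09), but without iMPC library 1 only 5 were higher. Ldha, lactate dehydrogenase, kept its call, with 1372, 806 and 752 CPM in iMPCs and 345, 222 and 467 CPM in myoblasts (log2 fold change 1.50 with SE 0.25, adjusted p 1.4e-05), and iMPC library 1 was the highest. Eno3, the muscle enolase, was lower in iMPCs (26.9, 40.3 and 26.8 against 361, 194 and 260.4 CPM, log2 fold change -3.12 with SE 0.37, adjusted p 4.8e-08). None of 25 nuclear genes of the respiratory chain was higher, and the 2 lower were the muscle isoforms Cox6a2 (1.91, 5.29 and 3.31 against 9.99, 39.4 and 117 CPM, -3.98, -2.82 without myoblast library 3) and Cox8b, whose call was lost without myoblast library 3. The median of that list was 0.18.

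The last lists were divided between the groups. Among 24 feedback genes of FGF and EGF receptors 2 were higher and 8 lower (12.4% and 17.6% of all genes). Without iMPC library 1, iMPC library 2 or myoblast library 2 there was 1 higher. The phosphatase Dusp4 was lower (16.5, 23.6 and 16.7 against 69.8, 96.5 and 34.6 CPM, -1.82). The Sprouty genes Spry1, Spry2 and Spry4 were not called (0.18, 0.16 and 0.34). Fgf21, a secreted hormone induced by stress, had 0.693, 0.525 and 3.72 CPM in iMPCs and 11.8, 58.8 and 154 CPM in myoblasts (log2 fold change -5.52 with SE 0.97, adjusted p 2.4e-05, -6.89 without iMPC library 3 and -4.43 without myoblast library 3). Of 32 axon guidance and adhesion genes 10 were higher and 9 lower (12.4% and 17.6% of all genes), with 6 higher without myoblast library 3. The receptor Plxna2 was higher (259, 268 and 288 against 60.0, 91.9 and 68.1 CPM, log2 fold change 1.89 with SE 0.37, adjusted p 9.7e-05). The ligand Sema3e was lower (13.6, 17.9 and 4.19 against 319, 138 and 497 CPM, log2 fold change -4.74 with SE 0.50, adjusted p 9.1e-09), and the semaphorin receptor Nrp2 was lower too (2.90, 1.25 and 0.724 against 83.8, 127 and 37.0 CPM, -5.65, -6.36 without iMPC library 1).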

How the data were processed

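Poly-A RNA of 45 mouse libraries was sequenced with stranded TruSeq kits as single-end reads, per the labels' protocols. The authors deposited, for each library, estimated counts and TPM per transcript. The submitters' processing notes name bcl2fastq 2.19, Trimmomatic 0.36, kallisto 0.44, edgeR 3.28 and GRCm38.p6, with no role or order. For each gene the authors' expected counts of its transcripts were added up and rounded to whole numbers for the tests. Of 121843 transcripts 739 matched no gene and were left out, and 17325 genes passed the filter on low counts (filterByExpr by group). The deposited TPM served only to compare levels between genes of different length. Sorted libraries held 17.5 to 24.2 M reads, and the 6 bulk libraries 22.0 to 36.3 M. Intervals and floors cover counting error only.

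All 45 libraries in 15 groups of 3 were fitted together with edgeR 4.0.16 in R 4.3.3 (TMM, quasi-likelihood, 30 residual degrees of freedom, replicates not paired), with contrasts for the sorted groups, the bulk groups and their difference. Standard errors were taken from the log2 fold change and its F statistic. The pipeline was tested on simulated counts. There it called 149 of 200 genes changed 4-fold between the sorted groups and 6 unchanged genes among 17325. The simulated counts followed the model of the fit, with the same spread of a gene in every group. They cannot show how calls fare if the sorted libraries spread more than the others. Named genes are members of 25 lists and 9 marker lists and, among autosomal protein-coding genes called without overlap at 10 CPM or more and with whole counts in the 6 sorted libraries, the 15 largest changes and 5 smallest p-values in each direction. Genes of chromosomes X and Y were left out of that ranking. The members and lists were chosen with earlier results of these data known. Alternatives were RLE scaling, other filters, a fit of only the groups compared, no minimum fold change, a replicate block, DESeq2 1.42.0, a sex term, genes with whole counts only, and leaving out each library. The alternative with a sex term and only the groups compared was chosen after seeing the data.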

Additional observations from a re-analysis of the deposited data

Results flagged for a closer look

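The difference between iMPCs and myoblasts was not the same in sorted and bulk cells for 4172 genes, by the test of the sorted minus bulk difference in one edgeR fit (quasi-likelihood, Benjamini-Hochberg adjusted). The values below are log2 units, sorted minus bulk, and each passed that test. Among ranked genes higher in sorted iMPCs it was 6.06 for Prrt3, 4.56 for the intermediate filament gene Prph, 2.09 for 2610318N02Rik, 1.29 for Mogs and 1.36 for Nsmce4a. In these genes the sorted difference was larger than the bulk one. Ranked genes of both directions were chosen by their sorted values, which favours a larger sorted than bulk difference. That they share this direction is therefore no further evidence.

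Among ranked genes lower in sorted iMPCs it was -6.98 for Ctrb1, -7.99 for Pln, -4.21 for the channel subunit Dpp6, -6.50 for the cytoskeletal gene Add2 and -6.48 for the growth factor Pdgfd. It was -5.94 for Disp2, -3.96 for Myo18b, -3.38 for Adgrg1, -6.44 for Arap3, -4.37 for Alox5 and -6.67 for Cdsn. The genes with the smallest p gave -3.09 for Vamp8, -1.91 for Akirin1, -2.17 for Tdrd7 and -4.10 for the kinase Lyn. In sorted iMPCs Ctrb1 had no read over the 3 libraries, Pln 1, Add2 2, Dpp6 3, Arap3 4 and Pdgfd 5, and Prrt3 had 3 in sorted myoblasts, so these fitted values depend on the prior count. Sorted libraries were quantified with another fragment length than bulk libraries, and this setting and the sort cannot be told apart in these values. No group had more than 3 libraries, so single libraries were not tested as outliers.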

How the results depend on the processing

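The count of genes called between sorted iMPCs and sorted myoblasts, 5199, stayed within 1.5 times under RLE scaling (5203), no filter (5150), a replicate block (5357), DESeq2 (5379) and a sex term (5309), and ranged from 4607 to 5165 when single libraries were left out. It was 3370 with a filter at 10 CPM in 3 libraries, which tests fewer genes, 3424 with only the 6 sorted libraries fitted, 8233 without a minimum fold change, 3064 with a replicate block and only those libraries, 2558 over genes with whole counts in all libraries, and 3326 with a sex term and only those libraries. The bulk count, 3396, was 1958 with the stricter filter, 1265 with only the groups compared, 5693 without a minimum fold change and 1755 over genes with whole counts, with 2785 to 3902 when single libraries were left out. The sorted minus bulk count, 4172, was 1679 with only the groups compared and 1995 over genes with whole counts, with 3111 to 4860 when single libraries were left out. With only the groups compared, 4386 of the 5199 sorted calls were tested and 3364 were made in the same direction.

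Replicate numbers were not taken as pairs, a choice made in the design. Same-numbered sorted libraries deviated together with r of 0.108, -0.041 and 0.059 across genes, and they differed in sex. Under a replicate block the totals were 5357 (sorted), 3609 (bulk) and 4440 (difference), and not every library correlated best with its own number. RLE moved the median log2 fold change by 0.0208. The sterol list had 7 members higher with the block and only the sorted libraries, and Pax7 was called with the block, at -1.04. Of the genes named, Pdgfra turned from 3.29 to -0.34 without iMPC library 1; its log2 fold changes without single libraries ranged from -0.34 to 3.88. Myh11, at 2.86, turned to -0.82 without iMPC library 2, with a range from -0.82 to 3.42. No other named gene that was called changed sign. Calls were less stable than signs: of 214 named genes 171 were called, and 35 of these lost the call under at least 1 alternative. The number lost was 14 with only the sorted libraries fitted and 21 with a sex term and only those libraries. Among the 35 were Ly6a, Lpl, Pdgfrb, Postn, Hey1, Id3, Map2 and Mbp. Genes with 3 reads or fewer in one group carry wide intervals, and depth limits what can be said of them.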
